A study of Mus musculus with 4 samples.

Results

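The genes described here encode proteins that hold back or drive entry into the cell cycle, and were measured in 4 heart sections of neonatal mice taken after a cryoinjury. They are the Cip/Kip inhibitors Cdkn1a, Cdkn1b and Cdkn1c, the INK4 inhibitors Cdkn2c and Cdkn2d, the D cyclins Ccnd1, Ccnd2 and Ccnd3, the kinase gene Cdk4 and the retinoblastoma gene Rb1. These 10 genes were chosen by name, out of 32285 features in the deposited tables, and all 10 were found. The 10x Genomics Visium assay was used, in which RNA of a tissue section is captured on barcoded spots, each a small region that can hold several cells. The mice were of the ICR stock, and all of them had received a cryoinjury at postnatal day 1, in which a cold probe was held for 5 s to the left ventricular apex. The sections were taken 1, 4, 7 and 14 days later and are called d1, d4, d7 and d14, which is postnatal days 2, 5, 8 and 15. There was 1 section of 10 µm for each, every section came from an injured heart, and the hearts were cut until the injury was seen, per the series' design text. Time after injury therefore ran together with postnatal age and with the individual heart, and these cannot be told apart.

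D cyclins bind CDK4 or CDK6 and the complex phosphorylates the retinoblastoma protein, which releases E2F factors and lets a cell enter S phase. INK4 proteins bind CDK4 and CDK6 directly, whereas Cip/Kip proteins bind cyclin and kinase complexes, chiefly those of CDK2, and at low levels also help cyclin D complexes to assemble. Mouse cardiomyocytes divide around birth and leave the cell cycle within the following weeks, and this withdrawal coincides with the loss of the neonatal heart's ability to regenerate.

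After spots under 500 UMIs (unique molecular identifiers, each a counted RNA molecule) were left out, 445, 662, 774 and 1175 spots remained in order of time, with medians of 7810, 7998, 8028 and 3770 UMIs. The totals in the matrices were 3419864, 6187656, 6358894 and 4741982 UMIs, and mitochondrially encoded genes took 5.17% to 11.6% of them. The 12 cardiomyocyte markers each had at least 10 UMIs in every section, and their summed level was 83086, 71622, 87025 and 109385 CPM in order of time. Summed fibroblast markers had 2786, 6193, 6193 and 8022 CPM and summed macrophage markers 533, 295, 337 and 867 CPM. Summed atrial markers had 1477, 6941, 589 and 2619 CPM, highest at d4, so the cell makeup of the sections differed as well. The part of cell makeup in the results below was not tested. In pooled spots, fewer cells of a type and less RNA per cell cannot be told apart. Of 1328 spot barcodes, 1000 were listed in 2 or more sections, as Visium arrays reuse one barcode set. With 1 section per time point there is no replicate, so no p-value between sections is given. A level is given in CPM, which is UMIs per 1e+06 UMIs of the section without haemoglobin and mitochondrially encoded genes. Intervals are 95% intervals that cover counting error only. A gene was counted as higher or lower between sections when it reached 20 CPM in 1 of the 2, its levels differed at least 2-fold (a ratio of 2 or more, or of 0.5 or less) and 1 lay outside the interval.

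Over the 4 sections, Cdkn1a had its highest level in one section and 6 of the other genes had theirs in another. Cdkn1a was highest at d14, whereas Cdkn2c, Cdkn2d, Ccnd1, Ccnd2, Cdk4 and Rb1 were highest at d4. Of these 6, all but Rb1 were lowest at d14. Ccnd3 was highest at d1 and lower in each later section, Cdkn1b was lowest at d7, and Cdkn1c stayed at nearly one level. The plot of levels by day shows each gene with its interval.

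**Figure D1:**
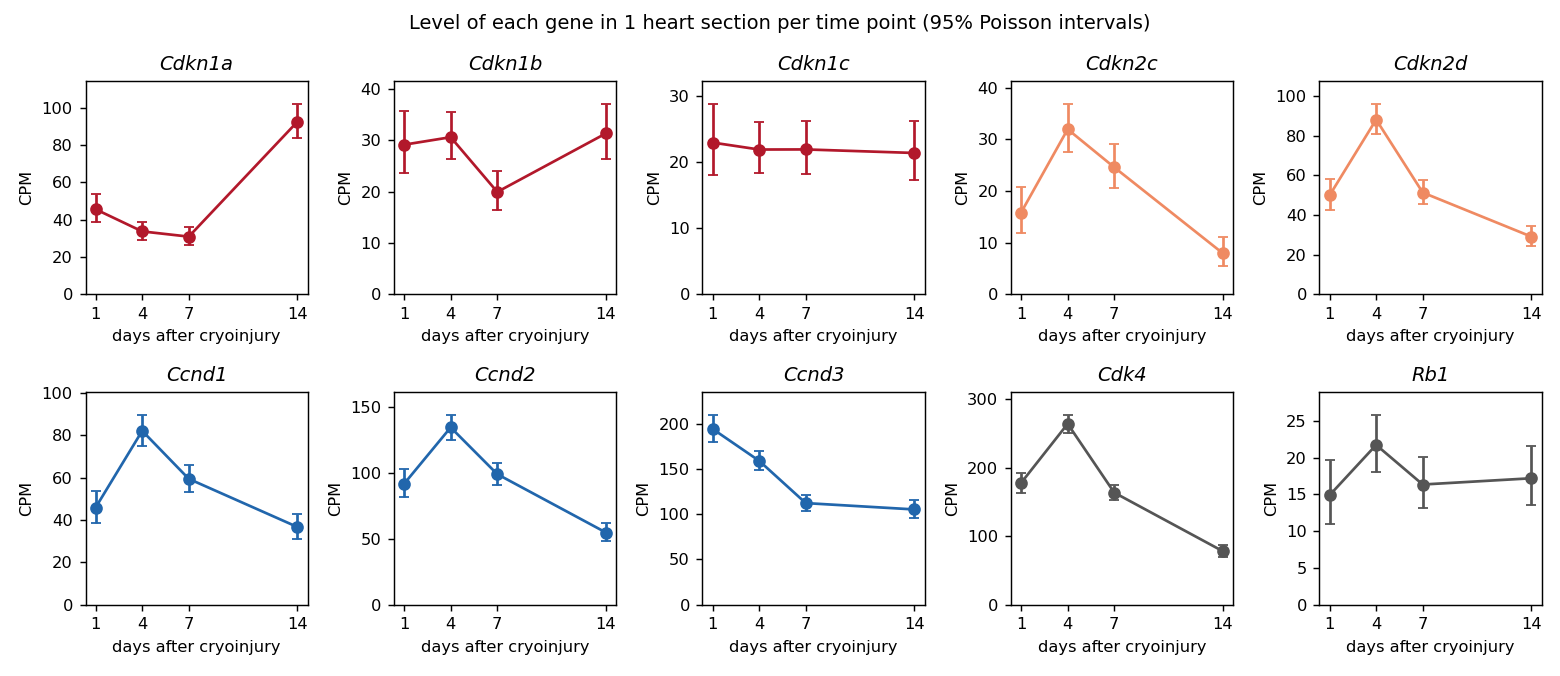
Level of each of the 10 genes in CPM (vertical axes, from 0) against days after cryoinjury, with 1 section per time point. Bars are exact Poisson 95% intervals. Cdkn1a is highest at d14 (92.7 CPM), Cdkn2d, Ccnd1, Ccnd2 and Cdk4 are highest at d4, and the intervals of Cdkn1c overlap in all sections.

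Promoter sequences are shown for 4 of the genes whose levels moved over the sections: Cdkn2c, Cdkn2d and Cdk4, which had their highest level at d4 and their lowest at d14, and Cdkn1a, which had its highest level at d14. RefSeq (GRCm38.p6) gave 9 promoter windows for 6 of the genes, from 250 bases before to 50 bases after an annotated start. Both strands were searched for the Egr1 motif GCGNGGGCG, since Egr1 is the factor in the series title, for an E2F motif TTTNNCGC, for the cell cycle homology region TTTGAA and for the Sp1 motif GGGCGG. Capitals mark Egr1 motif matches.
Cdkn2c, chr4:109666707-109667006, minus strand: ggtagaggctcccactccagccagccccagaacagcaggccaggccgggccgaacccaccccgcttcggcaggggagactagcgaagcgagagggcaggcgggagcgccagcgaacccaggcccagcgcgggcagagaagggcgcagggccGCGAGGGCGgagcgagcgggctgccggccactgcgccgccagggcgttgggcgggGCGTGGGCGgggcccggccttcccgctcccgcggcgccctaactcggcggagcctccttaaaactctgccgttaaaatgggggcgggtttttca
Cdkn2d, chr9:21291160-21291459, minus strand: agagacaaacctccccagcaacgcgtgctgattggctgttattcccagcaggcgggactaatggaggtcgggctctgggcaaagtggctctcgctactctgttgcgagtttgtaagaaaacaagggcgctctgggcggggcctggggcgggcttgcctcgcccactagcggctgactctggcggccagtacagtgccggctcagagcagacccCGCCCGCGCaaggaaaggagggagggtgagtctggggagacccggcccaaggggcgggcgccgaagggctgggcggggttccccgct
Cdk4, chr10:127063285-127063584, plus strand: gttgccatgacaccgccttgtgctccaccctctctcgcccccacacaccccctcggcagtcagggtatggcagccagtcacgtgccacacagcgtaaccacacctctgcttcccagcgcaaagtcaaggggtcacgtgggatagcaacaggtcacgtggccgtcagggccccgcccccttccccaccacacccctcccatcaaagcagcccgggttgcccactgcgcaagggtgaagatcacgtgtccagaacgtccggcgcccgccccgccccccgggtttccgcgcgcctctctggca
Cdkn1a, chr17:29093519-29093818, plus strand: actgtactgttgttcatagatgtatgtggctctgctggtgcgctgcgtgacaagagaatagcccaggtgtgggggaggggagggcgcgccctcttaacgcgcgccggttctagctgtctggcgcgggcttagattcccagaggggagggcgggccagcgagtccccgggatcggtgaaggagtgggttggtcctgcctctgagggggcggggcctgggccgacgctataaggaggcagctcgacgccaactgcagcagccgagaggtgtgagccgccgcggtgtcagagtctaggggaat

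The Egr1 motif had 2 matches in this Cdkn2c window, beginning 99 and 44 bases before the start, and 1 match in the Cdkn2d window, on the opposite strand and beginning 37 bases before the start. It had none in the other 7 windows, those of Cdk4 and Cdkn1a included. The share of all 32851 promoter windows that held it was 5.55%. The E2F motif, in 5.17% of all windows, and TTTGAA, in 17.9% of them, had no match in the 9 windows, which says only that these letters are not there. The Sp1 motif, in 35.7% of all windows, overlapped each Egr1 match and also lay in the printed Cdk4 and Cdkn1a windows. A match is a description of letters and not of binding.

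Among the Cip/Kip inhibitors, Cdkn1a had the widest range over time. Cdkn1a (ENSMUSG00000023067, chromosome 17 from 29090976 to 29100727, plus strand, GRCm38) encodes p21, which is induced by p53 and other signals and halts cells before S phase. It had 147 (d1), 197 (d4), 172 (d7) and 399 UMIs (d14), which was 45.6, 33.7, 30.9 and 92.7 CPM. The d14 section thus stood above the other sections, and d4 and d7 did not differ beyond counting error (ratio of d7 over d4 0.917, 0.743 to 1.13). Cdkn1a was 3.00-fold higher at d14 than at d7 (2.50 to 3.61), 2.03-fold higher at d14 than at d1 (1.68 to 2.47), and at d4 it had 0.739 times its d1 level (0.594 to 0.922). The excess at d14 over d1 lay at the edge of the size rule and was 0.97 on the log2 scale with CPM over all genes and 0.99 without the injury-list-rich region described below, just short of 2-fold.

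Cdkn1b (ENSMUSG00000003031, chromosome 6 from 134920401 to 134925513) encodes p27, a brake on CDK2 that is removed by ubiquitination as cells enter S phase. It had 29.2 (d1), 30.6 (d4), 19.9 (d7) and 31.4 CPM (d14). The d7 section was the low one and the other sections did not differ beyond counting error. The ratio of d7 over d1 was 0.684 (0.515 to 0.910), that of d7 over d4 was 0.651 (0.509 to 0.830) and that of d14 over d7 was 1.57 (1.21 to 2.04), none of which reached 2-fold.

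Cdkn1c (ENSMUSG00000037664, chromosome 7 from 143458339 to 143461050) encodes p57, an imprinted inhibitor expressed from the maternal allele. It had 22.9 (d1), 21.9 (d4), 21.9 (d7) and 21.4 CPM (d14), from 74, 128, 122 and 92 UMIs. The ratio of d14 over d1 was 0.931 (0.678 to 1.28), so that its counts showed no difference but allowed a d14 level anywhere within that interval of the d1 level. Other imprinted genes of growth did not share this level course. Of 11 listed, all measured, 9 were lower and 1 was higher at d14 than at d1 (median log2 ratio -1.80, against -0.06 over all genes tested). Dlk1, a non-canonical Notch ligand, had 1.63 CPM at d14, against 40.3 at d1, and the noncoding RNA H19 had 67.1 CPM at d14, against 581 at d1. The gene that was higher, Dcn, encodes the fibroblast proteoglycan decorin. Of the 9 listed neighbours in the imprinted domain of Cdkn1c, 5 reached 20 CPM at d14 or d1 and 0 passed the rule.

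The INK4 inhibitors were highest at d4. Cdkn2d (ENSMUSG00000096472, chromosome 9 from 21288410 to 21291407), which encodes p19, had 49.9 (d1), 88.3 (d4), 51.4 (d7) and 29.0 CPM (d14), from 161, 516, 286 and 125 UMIs. The d4 section was high, d14 was low, and d1 and d7 did not differ beyond counting error (ratio of d7 over d1 1.03, 0.845 to 1.26). Cdkn2d was 1.77-fold higher at d4 than at d1 (1.48 to 2.12), under the 2-fold rule, and its d14 level was 0.329 times its d4 level (0.268 to 0.401).

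Cdkn2c (ENSMUSG00000028551, chromosome 4 from 109660876 to 109667189) encodes p18. It had 15.8 (d1), 32.0 (d4), 24.6 (d7) and 7.90 CPM (d14), from 51, 187, 137 and 34 UMIs, and each pair of neighbouring sections differed beyond counting error. It was 2.02-fold higher at d4 than at d1 (1.48 to 2.81), and its d14 level was 0.321 times that at d7 (0.214 to 0.470). The ratio of d4 over d1 fell short of 2-fold with TMM scaling (log2 ratio 0.83) and without the injury-list-rich region (0.86). Of d14 over d1 the ratio was 0.499 (0.314 to 0.786), but neither section reached 20 CPM. The other INK4 genes were near the limit of detection, with 0, 1, 0 and 0 UMIs of Cdkn2a and 3, 6, 2 and 6 UMIs of Cdkn2b in order of time. A count of 0 entered a ratio at 3 UMIs, which is 0.930 CPM at d1, 0.539 at d7 and 0.697 at d14.

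The D cyclins divided into a pair with its highest level at d4 and Ccnd3, with its highest level at d1. Ccnd1 (ENSMUSG00000070348, chromosome 7 from 144929931 to 144939925), the D cyclin most closely tied to growth factor signals, had 45.9 (d1), 82.1 (d4), 59.4 (d7) and 36.7 CPM (d14). Ccnd2 (ENSMUSG00000000184, chromosome 6 from 127125162 to 127152193), which drives cardiomyocyte DNA synthesis when overexpressed in mouse hearts, had 91.8, 135, 99.1 and 54.8 CPM in the same order. Both were high at d4 and low at d14. Ccnd1 was 1.79-fold (1.48 to 2.17) and Ccnd2 1.47-fold (1.28 to 1.68) higher at d4 than at d1, both under the size rule. Between d14 and d1, Ccnd1 had a ratio of 0.7997 (0.635 to 1.01), which did not exclude equal levels, and Ccnd2 had a ratio of 0.597 (0.501 to 0.711).

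Ccnd3 (ENSMUSG00000034165, chromosome 17 from 47505051 to 47599691), a D cyclin that persists in many differentiating tissues, had 194 (d1), 159 (d4), 112 (d7) and 105 CPM (d14), from 626, 929, 625 and 453 UMIs. The d7 and d14 sections did not differ beyond counting error (ratio of d14 over d7 0.938, 0.829 to 1.06). Its ratio of d4 over d1, 0.819 (0.739 to 0.907), ran opposite to those of Ccnd1 and Ccnd2, and its ratio of d14 over d1 was 0.542 (0.479 to 0.613). Without the injury-list-rich region the log2 ratio of d14 over d1 was -1.04, past 2-fold. The 3 D cyclins summed to 332, 376, 271 and 197 CPM in order of time.

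As shares of the D cyclin UMIs, which do not depend on scaling between sections, Ccnd3 held 58.5% in the d1 section (55.5 to 61.5), 42.3% in the d4 section (40.2 to 44.4), 41.4% in the d7 section (38.9 to 44.0) and 53.5% in the d14 section (50.1 to 56.9). Ccnd1 held 13.8%, 21.9%, 21.9% and 18.7% and Ccnd2 27.7%, 35.8%, 36.6% and 27.9%. The shares at d4 and d7 were thus alike and the share of Ccnd3 at d1 lay outside the interval of every later section. Of the Cip/Kip UMIs, Cdkn1a held 46.7% in the d1 section (41.1 to 52.3), 39.1% in the d4 section (34.8 to 43.5), 42.5% in the d7 section (37.6 to 47.4) and 63.7% in the d14 section (59.8 to 67.5), and the interval at d14 overlapped none of the others. Cdkn2c held 24.1%, 26.6%, 32.4% and 21.4% of the INK4 UMIs, with overlapping intervals in all sections.

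**Figure D2:**
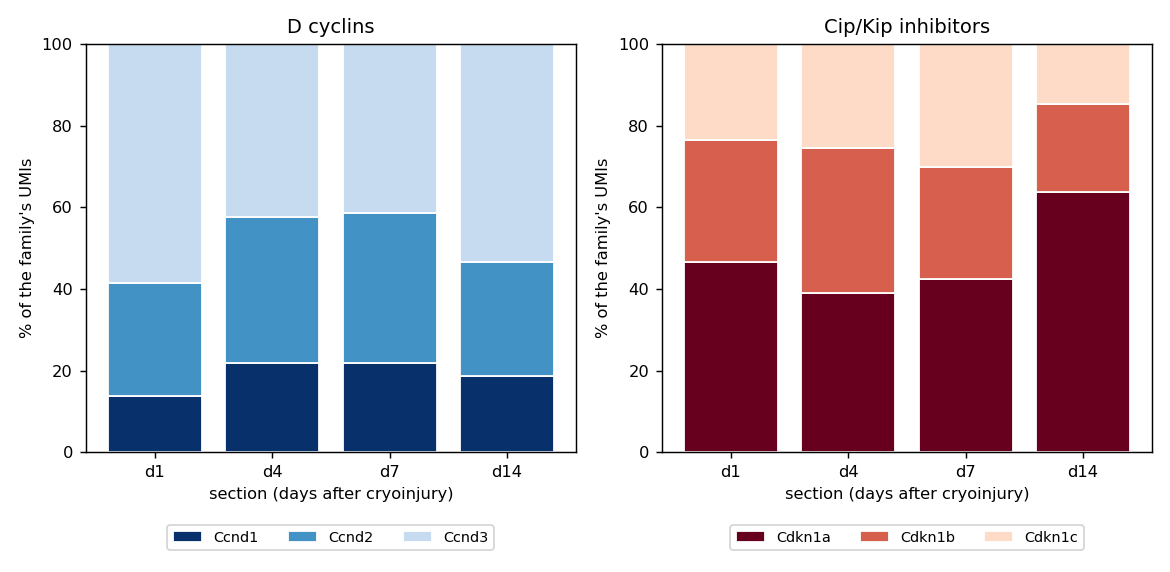
Share of each family's UMIs held by each member (vertical axes, percent) in each section, for the D cyclins on the left and the Cip/Kip inhibitors on the right. The share of Ccnd3 is 58.5% at d1 and 53.5% at d14, with lower values at d4 and d7, and the share of Cdkn1a is highest at d14 (63.7%).

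Cdk4 (ENSMUSG00000006728, chromosome 10 from 127063534 to 127067920), the kinase that the D cyclins activate, had 178 (d1), 264 (d4), 164 (d7) and 78.1 CPM (d14), from 573, 1543, 911 and 336 UMIs. It was high at d4 and low at d14, and d1 and d7 did not differ beyond counting error (ratio of d7 over d1 0.921, 0.828 to 1.02). Cdk4 at d14 had 0.439 times its d1 level (0.383 to 0.503), 0.477 times its d7 level (0.420 to 0.541) and 0.296 times its d4 level (0.262 to 0.333). Tspan31, which overlaps Cdk4 on the other strand, had 45.6, 53.4, 53.7 and 54.4 CPM in order of time and did not share this course. Cdk6, the other D cyclin partner, had 27.6, 30.3, 32.9 and 26.5 CPM, so that the ratio of Cdk4 to Cdk6 UMIs was 6.44 (d1), 8.72 (d4), 4.98 (d7) and 2.95 (d14).

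Rb1 (ENSMUSG00000022105, chromosome 14 from 73183673 to 73325822) encodes the retinoblastoma pocket protein. It had 14.9 (d1), 21.7 (d4), 16.3 (d7) and 17.2 CPM (d14), from 48, 127, 91 and 74 UMIs. Only the d4 section reached 20 CPM, and the ratios of d4 over d1, 1.46 (1.04 to 2.08), and of d7 over d4, 0.752 (0.568 to 0.992) excluded 1 by a small margin. For Rb1 at d14 over d4 the ratio was 0.791 (0.586 to 1.06), which did not exclude equal levels. Of its relatives, Rbl1 (p107), itself an E2F target, had 11.2, 15.2, 8.62 and 4.18 CPM and Rbl2 (p130), the pocket protein of resting cells, had 16.1, 13.3, 12.03 and 15.8 CPM in order of time.

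Set against all genes, 1 of the 10 genes tested passed the size rule at d4 over d1 (Cdkn2c, higher), where 6.13% of all tested genes did. The counts were 0 of 9 at d7 over d1, beside 6.3% of all genes, 2 of 8 at d14 over d1 (Cdkn1a higher, Cdk4 lower), beside 13.4%, and 0 of 10 at d7 over d4, beside 2.24%. At d14 over d7 the count was 3 of 9 (Cdkn1a higher, Cdkn2c and Cdk4 lower), beside 8.55%. The genes that dropped out of these counts were Rb1 at d7 over d1, Rb1 and Cdkn2c at d14 over d1, and Rb1 at d14 over d7, each under 20 CPM in both sections. At d14 over d4, a comparison chosen after the levels were seen, 6 of 10 passed, beside 13.8% of all genes: Cdkn1a was 2.75-fold higher (2.31 to 3.28), while Cdkn2c (0.247-fold), Cdkn2d (0.329-fold), Ccnd1 (0.447-fold), Ccnd2 (0.407-fold) and Cdk4 (0.296-fold) were lower. With TMM scaling the log2 ratio of Ccnd1 was -0.91, short of 2-fold, and at a minimum of 50 CPM Cdkn2c could not pass.

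Many genes differed between sections beyond counting error, so that smaller differences were common. At d4 over d1, 6 of the 10 genes had an interval above 1, beside 35.4% of all genes, and at d7 over d4, 8 of 10 had an interval below 1, beside 43%. The median log2 ratio of the 10 genes was 0.55 at d4 over d1, against 0.17 over all genes tested. At d7 over d1 it was -0.07 over the genes tested, against -0.03, at d14 over d1 -0.53, against -0.06, at d7 over d4 -0.45, against -0.20, and at d14 over d7 -0.70, against -0.02. TMM scaling moved the median of all genes at d4 over d1 to -0.03.

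A ratio of UMIs between genes of the same section does not depend on the scaling. Cdkn1a had 0.993 (d1), 0.410 (d4), 0.520 (d7) and 2.53 (d14) UMIs per Ccnd1 UMI. It had 0.257, 0.128, 0.189 and 1.19 UMIs per Cdk4 UMI and 0.913, 0.382, 0.601 and 3.19 UMIs per Cdkn2d UMI in order of time. All 3 ratios were lowest at d4 and highest at d14. The 5 inhibitors summed to 163, 206, 149 and 182 CPM, beside the Cip/Kip sum of 97.7, 86.2, 72.7 and 145 CPM and the INK4 sum of 65.7, 120, 76.0 and 36.9 CPM. The all-inhibitor sum at d14 over d1 had a ratio of 1.116 (0.998 to 1.25), while the sum of the D cyclins and Cdk4 had a ratio of 0.539 (0.5001 to 0.582).

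**Figure D3:**
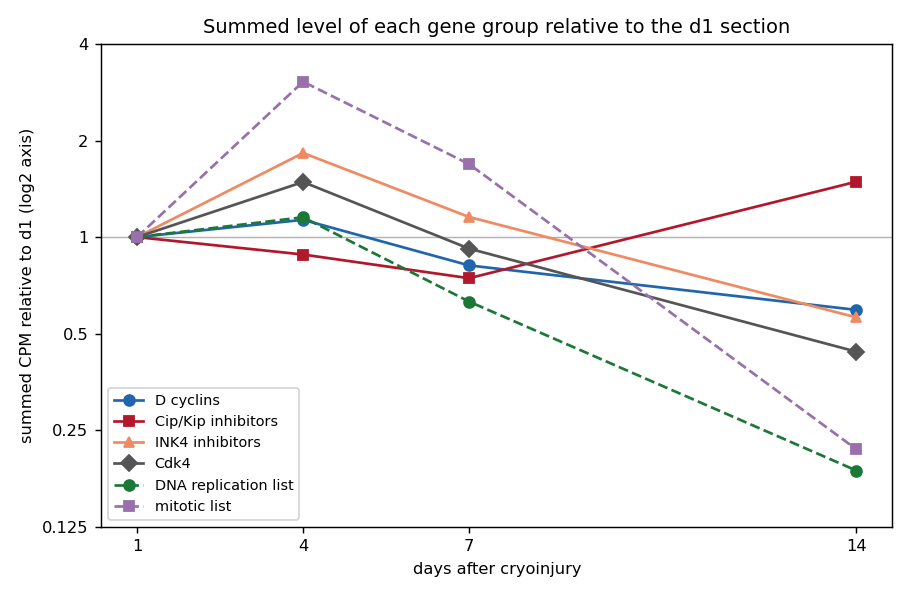
Summed CPM of each gene group relative to d1 (vertical axis, log2 scaled) against days after cryoinjury, 1 section per time point. The mitotic list reaches 3.05 at d4, the INK4 inhibitors 1.83 and Cdk4 1.49, and at d14 the Cip/Kip inhibitors are the one group above 1 (1.49).

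Downstream of the D cyclin kinases, genes of S phase and of mitosis followed different courses. A listed gene under 20 CPM in both sections could not pass the rule, so counts are given over those that reached it. At d4 over d1, of 23 mitotic genes 20 reached it, of which 20 were higher and 0 lower, whereas of 20 DNA replication genes 18 reached it and 0 passed. The median log2 ratios were 1.53 for the mitotic and 0.24 for the DNA replication list, both against 0.17 over all genes tested. Ccnb1, the mitotic cyclin B1, was 5.05-fold higher (3.53 to 7.42) and Ube2c, which passes ubiquitin to substrates of the anaphase-promoting complex, 4.17-fold (3.41 to 5.14). At d7 over d1, 6 of the 13 mitotic genes that reached 20 CPM were higher and 0 lower, and 3 of 17 DNA replication genes were lower and 0 higher, among them the origin licensing factor Cdt1 (0.376-fold). At d14 over d1, 16 of the 17 DNA replication genes and 6 of the 6 mitotic genes that reached 20 CPM were lower and 0 higher, with the thymidine kinase gene Tk1 at 0.0758-fold (0.0439 to 0.123) and the topoisomerase gene Top2a at 0.0936-fold (0.0496 to 0.164). Of the genes under 20 CPM there, 3 of 3 DNA replication and 15 of 17 mitotic genes also had a ratio of 0.5 or less with an interval below 1. At d14 over d7, 12 of 13 DNA replication and 12 of 13 mitotic genes that reached 20 CPM were lower and 0 higher. Relative to d1, the summed DNA replication list stood at 0.187 and the mitotic list at 0.218 at d14, while the D cyclins stood at 0.593.

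Of the 12 genes of the pocket protein, E2f and Dp list, 4 reached 20 CPM at d14 over d1, and 1 of them was lower, E2f1, an activator of S phase genes. Of the other 8, 4 also had a ratio of 0.5 or less with an interval below 1, namely E2f3, E2f7, E2f8 and Rbl1. E2f1 had 40.6 (d1), 33.4 (d4), 19.8 (d7) and 3.95 CPM (d14). At d14 over d7, 3 reached 20 CPM and 1 was higher, Tfdp2, an E2F dimer partner, with 40.4 CPM at d14, against 19.4 at d7. Of 8 other G1 kinases and cyclins, 5 reached 20 CPM and 1 of these was lower at d14 than at d1, the kinase gene Cdk2, with 13.9 CPM at d14, against 50.5 at d1. The other 3, Ccne1, Ccne2 and Cdc25a, had ratios of 0.5 or less with intervals below 1. Of 7 genes of the MuvB complex and its partners, which switch between repressing and activating cell cycle genes, 3 reached 20 CPM and 1 was higher at d4 than at d1, the mitotic activator Foxm1, with 31.5 CPM at d4, against 11.2 at d1.

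Of 15 listed genes for turnover of inhibitors and cyclins, 10 reached 20 CPM at d4 over d1, of which 1 was higher, Cks2, and 1 lower, Fbxo31. Cks2, a small CDK-binding subunit, had 31.9, 79.7, 50.8 and 6.505 CPM in order of time, and its relative Cks1b, which helps SKP2 to recognise p27, had 41.2, 62.4, 39.3 and 11.4 CPM. Fbxo31, an F-box protein that targets cyclin D1 for destruction after DNA damage, had 59.5, 27.5, 29.8 and 113 CPM, lower at d4 than at d1 (0.462-fold, 0.373 to 0.573) and higher at d14 than at d7 (3.79-fold, 3.17 to 4.54). Like Cdkn1a, it was lowest at d4 and d7 and highest at d14.

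Other p53 pathway genes did not all share the course of Cdkn1a. Of 8 that reached 20 CPM, 2 were higher and 0 lower at d4 than at d1, namely Plk2 (2.36-fold), a polo-like kinase gene, and Zmat3 (2.26-fold), whose product binds RNA. At d14 over d7, again of 8, 2 were higher, Gadd45a (2.89-fold, 1.996 to 4.24), a DNA damage response gene, and Sesn1 (2.79-fold, 2.42 to 3.23), which restrains growth signalling, and 1 was lower, Plk2 (0.410-fold). Sesn1 had 76.6, 57.8, 50.8 and 142 CPM in order of time. Among 10 listed regulators of the cardiomyocyte cell cycle, 5 reached 20 CPM at d14 over d7 and 1 was higher. This was the forkhead factor Foxo3, with 83.2 CPM at d14, against 28.9 at d7. At d14 over d1, 2 of the 8 that reached it were lower, the growth regulator Myc (4.18 CPM at d14, against 31.6 at d1) and the homeobox gene Meis2 (9.76 CPM at d14, against 23.6 at d1). Hoxb13 had 0 UMIs in all sections.

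Within a section, spots were grouped by expression without the 10 genes and the pathway lists, giving 30 clusters in all. The cluster with the largest share of UMIs from an injury list of matrix, macrophage and neutrophil genes is called the injury-list-rich region. It held 48 (d1), 54 (d4), 55 (d7) and 126 spots (d14). No spot positions were used, so it is a group of spots with like expression and not a mapped place. Spots of 1 heart are not replicates, and here a gene needed at least 20 UMIs in the section.

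In the region, 0 of the 10 genes passed the size rule at d1, beside 12% of all genes, 1 at d4 (beside 18.3%), 1 at d7 (beside 16.8%) and 0 at d14 (beside 11.7%). The gene at d4 was Cdkn1a, with 67.5 CPM in the region, against 29.5 CPM in the rest (2.29-fold, 1.60 to 3.22). Its ratios of region over rest in the other sections were 1.01 (0.537 to 1.75) at d1, 1.56 (0.888 to 2.59) at d7 and 1.22 (0.902 to 1.63) at d14. At d14, the level of Cdkn1a was thus 110 CPM in the region and 90.4 CPM in the rest, both above every cluster of the d1, d4 and d7 sections. The gene at d7 was Cdkn1c, with 54.8 CPM in the region, against 19.6 CPM in the rest (2.80-fold, 1.64 to 4.55). This value rests on 20 UMIs in the region, whose leading genes were Wfdc18, Myh3, Car3 and Osr1.

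Differences under 2-fold were also present. An interval without 1 was found for 2 of the 10 genes at d1 (beside 22% of all genes), 4 at d4 (beside 34%), 3 at d7 (beside 26.8%) and 3 at d14 (beside 25.5%). At d1, Ccnd1 had 78.8 CPM in the region, against 42.5 in the rest (1.86-fold, 1.15 to 2.89), while Ccnd3 had 122 CPM in the region, against 202 in the rest (0.602-fold, 0.420 to 0.840). At d4, Cdkn1c (1.84-fold, 1.13 to 2.89), Cdkn2c (1.64-fold, 1.09 to 2.42) and Cdk4 (1.19-fold, 1.02 to 1.38) had intervals above 1 beside Cdkn1a. At d7, these were Ccnd2 (1.45-fold, 1.07 to 1.94) and Cdk4 (1.62-fold, 1.29 to 2.01) beside Cdkn1c. At d14, they were the D cyclins Ccnd1 (1.94-fold, 1.27 to 2.88) and Ccnd3 (1.61-fold, 1.25 to 2.06) and the kinase gene Cdk4 (1.70-fold, 1.26 to 2.24). Cdk4 had 122 CPM in the d14 region, against 72.2 CPM in its rest.

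**Figure D4:**
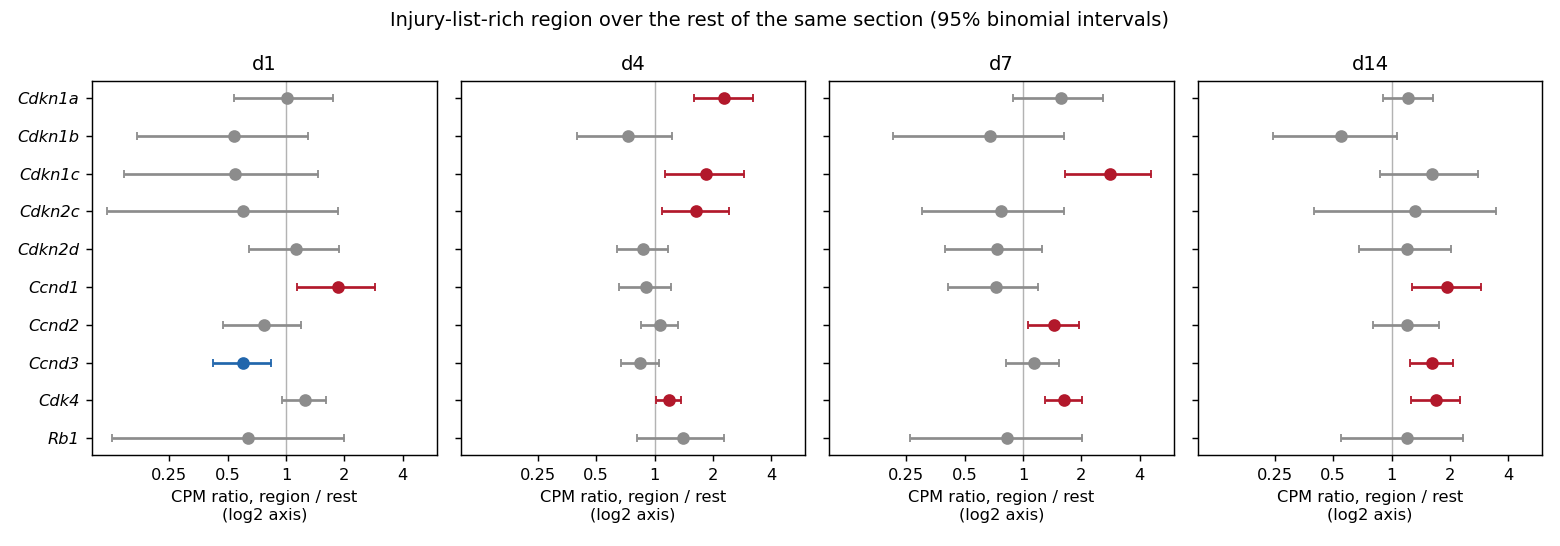
Ratio of CPM in the injury-list-rich region over the rest of the section (horizontal axes, log2 scaled), by gene, in 1 panel per section. Bars are exact 95% intervals, with red above 1, blue below 1 and grey where the interval holds 1. Cdkn1a at d4 (2.29) and Cdkn1c at d7 (2.80) pass 2-fold, and Ccnd3 lies below 1 at d1 and above 1 at d14.

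The region also differed from the rest in its cell type markers, in part by its selection. The injury list shares Col1a1 and Col3a1 with the fibroblast markers and Lyz2, Cd68 and Lgals3 with the macrophage markers. Summed cardiomyocyte markers had 56085 CPM in the region, against 85901 in the rest at d1, 29568 against 76900 at d4, 37117 against 90524 at d7 and 75150 against 113864 at d14. Summed fibroblast markers had 7756 against 2267 CPM at d1, 19215 against 4558 at d4, 26828 against 4746 at d7 and 17906 against 6729 at d14. Macrophage markers had 3570 against 216 CPM, 1192 against 183, 1332 against 267 and 2297 against 680, and atrial markers 2604 against 1360, 18755 against 5459, 4035 against 347 and 9686 against 1694. At d7, red blood cell markers had 36336 against 7642 CPM. Summed skeletal muscle markers had 1486 against 2547 CPM at d7, but Myh3, a gene of that list, was among the region's leading genes. The sum thus does not describe each listed gene, and does not show a region poor in skeletal muscle transcripts. Of the 8 listed skeletal muscle genes, 6 had at least 10 UMIs in the d7 section, against 2 in each other section. The part of all these markers in the region's ratios was not tested. Mitotic genes summed to 795 CPM in the region, against 345 in the rest at d1, and to 175 against 72.5 at d14, while at d4 they had 1287 against 1168 and at d7 751 against 647.

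Across all 30 clusters, 7 of 300 values of a gene against the rest of its section passed the size rule, 4 higher and 3 lower. This is 2.33%, beside 4.8% of the values of all genes in the same clusters. Of the 7, 5 were of Cdkn1c. Beside the d7 region, Cdkn1c was high in a cluster of 37 spots at d1, led by Dcpp1, Cacna2d2 and the conduction system adhesion gene Cntn2, with 51.8 CPM, against 20.5 in the rest (2.53-fold, 1.27 to 4.65, beside 5.95% of all genes). It was also high in a cluster of 34 spots at d7, led by Cntn2, the sodium channel gene Scn10a and Gja5, the connexin of the conduction system, with 53.5 CPM, against 20.8 in the rest (2.57-fold, 1.1998 to 4.91, beside 4.79%). These values rest on 13 and 10 UMIs of Cdkn1c. The d14 cluster led by Cntn2 and the natriuretic peptide receptor gene Npr3, with 137 spots, had 21.0 CPM, against 21.4 in the rest. At d4, 0 of the 8 clusters passed the rule for Cdkn1c, that led by Dcpp1, Plvap and Npr3 included. Cdkn1c was low in a d7 cluster led by C3 and interferon-response genes such as Irgm2, with 11.3 CPM, against 23.5 in the rest (0.481-fold, 0.203 to 0.979, beside 2.48%), and in a d14 cluster led by Egln3, with 9.46 CPM, against 23.8 in the rest (0.397-fold, 0.155 to 0.853, beside 3.68%). The low values rest on 8 and 7 UMIs of Cdkn1c.

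Of the other values past the rule, one was Cdkn1a in the d4 region and one was Ccnd2 in a d14 cluster of 81 spots led by Dcun1d1, with 23.6 CPM, against 57.1 in the rest (0.413-fold, 0.164 to 0.864, beside 2.43%). The Ccnd2 value rests on 7 UMIs. Between the clusters of d14 and those of d4, the ranges of 6 of the 10 genes did not overlap, beside 12.2% of all genes tested. Cdkn1a ranged from 81.6 to 119 CPM over the d14 clusters, against 16.1 to 67.5 over the d4 clusters, and was higher in every d14 cluster. The other 5 were lower in every d14 cluster: Cdkn2c, Cdkn2d, Ccnd1, Ccnd2 and Cdk4. Cdk4 ranged from 57.2 to 122 CPM over the d14 clusters, against 229 to 309 over the d4 clusters. The ranges of Ccnd1 lay close together, with 21.6 to 64.2 CPM at d14, against 68.1 to 125 at d4. These are the 6 genes past the size rule between the same sections, so this is the same difference seen by cluster.

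**Figure D5:**
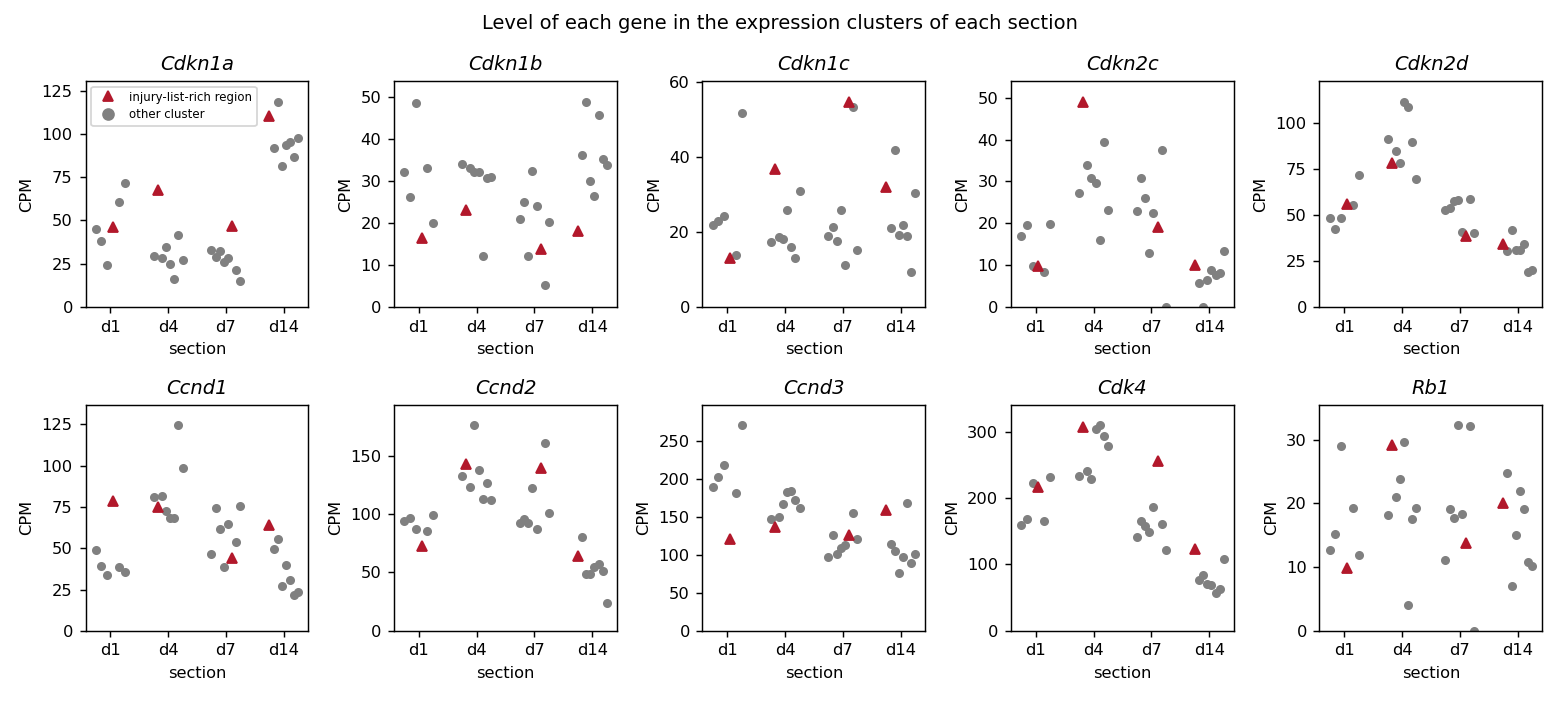
Level in CPM (vertical axes, from 0) of each gene in each expression cluster, by section. Red triangles mark the injury-list-rich region and grey points the other clusters. The d14 clusters of Cdkn1a (81.6 to 119 CPM) lie above all clusters of the earlier sections, and Cdkn1c at d7 reaches 54.8 CPM in the region.

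Spots rich in proliferation UMIs were set against spots poor in them, with the DNA replication and mitotic lists joined. At d1, between the 148 richest and the 148 poorest spots, 0 of the 10 genes had an interval without 1, beside 8.45% of all genes. At d4, between 220 and 220 spots, 3 did, beside 13.6%: Cdkn1a (1.63-fold, 1.11 to 2.43), Cdkn2d (1.39-fold, 1.11 to 1.76) and Cdk4 (1.21-fold, 1.07 to 1.38) were the higher ones. At d7, between 258 and 258 spots, 1 did, beside 7.52%, namely Cdkn2c (1.73-fold, 1.13 to 2.71). None of these reached 2-fold. The richer d4 spots also differed in cell type markers, with 7024 CPM of fibroblast markers in the richest, against 5060 in the poorest, 67075 against 77842 of cardiomyocyte and 311 against 253 of macrophage markers, whose part in these ratios was not tested. They were deeper at d4 (median 9503.5 UMIs, against 6755.5), and after each spot was thinned to 2500 UMIs 0 of the 10 had an interval without 1 at d4 and at d7, where fewer UMIs also widen the intervals. At d14 the median spot held 1 UMI of these lists, too few for such groups.

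Spots were also grouped by markers of cell types. Between the spots richest and poorest in cardiomyocyte markers, none of the 10 genes had an interval above 1 in any section, beside 5.21% (d1), 10.1% (d4), 5.92% (d7) and 6% (d14) of all genes. The number with an interval below 1 was 0 at d1 (beside 15.8% of all genes), 3 at d4 (beside 17.8%), 3 at d7 (beside 18.8%) and 4 at d14 (beside 19.4%). Ccnd1 at d14 passed the size rule, as did 9.08% of all genes, with 23.8 CPM in the 391 richest spots, against 56.3 CPM in the 391 poorest (0.422-fold, 0.274 to 0.638). Between spots rich and poor in fibroblast markers, Cdkn2c at d7 had 34.7 against 17.1 CPM (2.03-fold, 1.31 to 3.21, beside 6.89%) and Cdkn1c at d14 had 29.1 against 14.2 CPM (2.06-fold, 1.18 to 3.70, beside 7.95%). Between spots rich and poor in endothelial markers, 0 of the 10 genes passed the size rule, beside 3.01% (d1), 5.05% (d4), 2.48% (d7) and 2.07% (d14) of all genes. An interval below 1 was found for 2 (d1), 1 (d4), 0 (d7) and 0 (d14) of the 10, beside 6.51%, 12.8%, 6.55% and 4.09% of all genes in the same order. Macrophage markers gave medians of 1 or 2 UMIs per spot and were not used for such groups.

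The genes whose levels over the 30 clusters were most like those of each gene were found by Pearson's r of log2(CPM + 10) among 6669 genes. Since clusters of a section share a library and a time point, these values are a description over points that share depth and time. Cdk4 was most like the tubulin gene Tubb5 (r = 0.95) and the RNA-binding genes Hnrnpa1 and Ncl, Cdkn2d was most like the histone variant gene H2afz (0.88) and the proliferation marker Mki67 (0.87), and Ccnd2 was most like the linker histone gene H1f0 (0.90), the imprinted gene Mest and Stmn1. Cdkn1a was most like the glutamine synthetase gene Glul (0.90), Timp3 and Slc43a3, Ccnd3 like Dstn (0.82), Isyna1 and Prkag2, Ccnd1 like Gnai2 (0.79), Ube2c and Prc1, and Cdkn2c like Wdr6 (0.83), Sept7 and Spc25. Cdkn1c was most like the endocardial natriuretic peptide receptor gene Npr3 (0.68), Dhrs7b and Cpe. Cdkn1b was most like Mtr (0.72), and Rb1 most like Ldah (0.79). With levels centred within each section, 0 of the 3 most alike genes of 8 of the 10 genes were kept, 1 of Cdkn1c (Dhrs7b) and all 3 of Rb1 (Ldah, Scrib and Tcf7l2). Each r is the highest among the 6669 genes. Rb1 had only 48 to 127 UMIs per section, and the same few UMIs per cluster enter its r in both forms.

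Among the 10 genes themselves, Cdkn2d and Cdk4 had the highest r over the clusters (0.83), followed by Cdkn2d and Ccnd2 (0.78) and Ccnd2 and Cdk4 (0.74). Cdkn1a had its lowest values with Ccnd2 (-0.69) and Cdk4 (-0.63). Centred within each section these were 0.05, 0.23, -0.10, 0.13 and 0.30, so that none of these 5 pairs kept its r among the clusters within sections. Cdkn2c and Rb1 had 0.50 uncentred and 0.57 centred, and Cdkn1c and Cdk4 had 0.14 and 0.52. These pairs are named from among all pairs of the 10 genes and were not tested. Cdkn2c and Rb1 each ranged down to 0 CPM over the d7 clusters, so their r rests on few UMIs per cluster.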

How the data were processed

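UMI counts per gene and spot were measured with Visium in 4 sections, 1 for each of d1, d4, d7 and d14. Space Ranger 1.3.0 is named by the headers of the deposited counts, and build mm10 by the submitters' processing notes, which also name Seurat 4.1.1. The rule that selected the listed spots is not given in the sources used here. The members and gene lists were chosen with earlier results of these data known.

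Counts of spots with 500 or more UMIs were pooled. CPM leaves 10 haemoglobin and 13 mitochondrially encoded genes out of the total. Levels have exact Poisson 95% intervals, ratios exact conditional binomial ones and shares Clopper-Pearson ones. With 1 section per day no test was possible. The interval method was run on counts simulated with counting error alone. That simulation held no variation between spots or hearts, so it cannot show how the intervals do under such variation. A section at 0 UMIs entered a ratio at 3 counts, and list genes needed 10 UMIs. Of the listed symbols, 2 were not matched. All members are named in every result, and of each list the genes past the rule (up to the 4 with the largest ratio) or those with the most UMIs, so that Cdk6, Cdkn2a, Cdkn2b, Rbl1, Rbl2, E2f3, E2f7, E2f8, Ccne1, Ccne2, Cdc25a, Tspan31, Hoxb13 and Dcn were chosen after their values were seen.

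Spots were clustered per section with scanpy 1.11.5 (Leiden, igraph 0.11.9, resolution 0.8, 15 principal components, 15 neighbours, 2000 variable genes) after leaving out 138 genes of the members and lists. No doublet caller was run, since a spot can hold several cells. Counting by strand is not stated in the sources used here, so overlapping genes such as Cdk4 and Tspan31, Ccnd3 and Bysl, or Rb1 and Rcbtb2 may share reads. TMM factors came from edgeR 4.0.16. Alternatives covered scaling, spot and gene minimums, fold, region definition and thinning.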

Additional observations from a re-analysis of the deposited data

Results flagged for a closer look

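Ccnd3 differed in opposite directions at d14 and d1 when the injury-list-rich region was set against the other spots. The ratio was 1.61 at d14, with an interval above 1, and 0.602 at d1, with an interval below 1. This difference between sections was not tested, as each time point had 1 section.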

How the results depend on the processing

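No paired analysis was possible because each time point had 1 section, and for the same reason no replicate could be left out. At d4 over d1, 0 of the 10 genes passed the rule with TMM scaling, without the injury-list-rich region and at a minimum of 50 CPM. At d14 over d1, 1 passed with CPM over all genes (Cdk4). Without the region 2 passed there, but these were Ccnd3 and Cdk4 in place of Cdkn1a and Cdk4. At d14 over d4, 5 passed with TMM scaling (all but Ccnd1). At 1.5-fold the count was 3 of 10 at d4 over d1, beside 1338 of the 7276 genes tested. It was 2 of 9 at d7 over d1, beside 1126 of 6870, and 5 of 8 at d14 over d1, beside 2219 of 6982. At d7 over d4 it was 3 of 10, beside 846 of 7196, and at d14 over d7 7 of 9, beside 1551 of 6864. In the d4 region, 2 passed at Leiden resolution 1.2 (Cdkn1a and Cdkn1c). Between spots rich and poor in proliferation UMIs, 1 gene had an interval without 1 at d1 with all spots split in equal sets (Ccnd2), 2 at d7 without the region (Cdkn1b and Cdkn2c), and 0 at d4 and 0 at d7 after thinning, where the log2 ratio of Cdk4 at d4 was -0.020. The cause was not tested. Of the section log2 ratios recomputed, 351 stayed within their counting interval and 9 moved further, all with TMM scaling.

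Over all genes, the counts past the rule at a minimum of 10 CPM, at 50 CPM, without a filter and at 1.5-fold were 776, 190, 1460 and 1338 at d4 over d1 (446 as reported), 678, 194, 1312 and 1126 at d7 over d1 (433), 1455, 486, 2368 and 2219 at d14 over d1 (935), 332, 64, 908 and 846 at d7 over d4 (161), 911, 305, 1751 and 1551 at d14 over d7 (587) and 1560, 504, 2590 and 2557 at d14 over d4 (1028). With TMM scaling, 56.7% of those at d4 over d1 were higher in place of 76.5%, 61.9% at d7 over d4 in place of 32.3%, and 60.2% at d14 over d4 in place of 35.5%. With CPM over all genes, 44.0% at d7 over d1 were higher in place of 54.7%, and 19.9% at d7 over d4. Depth limits Cdkn2c, Rb1 and Cdkn1c most, which had 34 to 187 UMIs per section.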
